A study of Mus musculus with 2 samples.

Results

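The JNK and p38 stress kinase arm comprises 10 genes of the mouse. Of these, 4 encode kinases of the MAP2K tier (Map2k3, Map2k4, Map2k6 and Map2k7). The others are Mapk8 (JNK1), Mapk9 (JNK2), Mapk14 (p38 alpha) and 3 kinases downstream of p38 (Mapkapk2, Mknk1 and Mknk2). Members were all probe sets that the annotation of the Affymetrix MG_U74Av2 array maps to exactly 1 of these genes, which gave 15 of the 10855 probe sets that carry a single gene name. They stand for 9 of the 10 genes, and Map2k7 was not analysed here. The study profiled 3T3 cells, an immortal fibroblast line from mouse embryos, with 1 array of total RNA in each of 2 conditions. The series text also mentions 2 replicates, of which the labels show none, and whether an array stands for pooled cultures is not known here. In the suspension group the cells were kept unattached in serum-free DMEM. In the fibronectin group they were cultured for 30 min on fibronectin, used at 10 µg/ml, in the same serum-free medium. The labels describe no genetic change in either group, and neither the 3T3 line nor the length of the suspension culture is named in the sources used here. Since a condition rests on 1 array, the differences are given without p-values, and "higher" and "lower" compare the 2 arrays alone.

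The JNK and p38 pathways are relays of protein kinases that respond to stress, to cytokines and to attachment of cells to matrix through integrins. MAP3 kinases phosphorylate the MAP2 kinases, these phosphorylate JNK or p38, and the activated kinase phosphorylates transcription factors such as Jun and Atf2 or further kinases. MKK3 and MKK6 act on p38, MKK7 acts on JNK, and MKK4 acts on JNK and can act on p38 too. The pathway is switched by phosphorylation of proteins already present, so an array reports the supply of its messages and not its activity.

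Each array was scaled to a common trimmed mean of its intensities, and a signal of 490 was set as a floor for both. Probe sets that reached this floor in either array are called measured, and a ratio with 1 array under it is a bound. As a measure of background, 34 negative control probe sets, which detect bacterial and yeast transcripts, taken here as not added, or antisense strands, had 95th percentiles of 1403 in suspension and 1873 on fibronectin, with the highest at 1452 and 2527. The error of a log2 ratio, taken as the spread between probe sets of a gene over 1150 genes that had several, was 0.68 (SD), which leaves out the spread between cultures. Of the fibroblast markers 14 of 15 were measured and 11 exceeded the 95th percentile of the negative controls in both arrays, among them Col1a1, Col1a2 and Pdgfra, while Thy1 lay under the floor in both and Vim had signals of only 1421 and 686. Their summed signal was 187657 in suspension and 276616 on fibronectin. Markers of macrophages and blood reached the floor in 3 of 8 genes with a probe set, with summed signals of 9069 and 6934, those of epithelium in 5 of 6 (3928 and 2732), those of muscle in 4 of 5 (4236 and 3454) and those of endothelium in 2 of 5 (1989 and 1271). Of these other markers only Cd14 exceeded the 95th percentile of the negative controls in both arrays. The part of cell make-up in the results was not tested, and in bulk RNA fewer cells of a type and less RNA per cell cannot be told apart. The arrays also differed in chip lot, operator, fluidics module and scan day, which cannot be told apart from the groups.

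Of the 15 probe sets, 11 were measured, and they stand for 8 of the 9 genes. The measured probe sets of the JNK branch, in which Map2k4 is counted, were lower on fibronectin, led by Mapk9 and Map2k4. In at least 1 array, each of them had a signal that some negative controls exceeded. With the floor at the negative controls, only Map2k4 of this branch was measured, as a bound. The measured probe sets of the p38 branch and of the kinases downstream were higher, led by Mknk1 and Map2k3. Of these, Mapk14 and Mknk2 turned lower when the arrays were scaled to hybridisation spikes. Of the 11, 8 had a log2 ratio (fibronectin minus suspension) above 0 and 3 below 0, and 45.4% of all 7753 measured probe sets lay above 0. Among the 8, 160353_i_at of Mapkapk2, which also passed 1.5-fold, reached the floor on fibronectin alone, so its ratio could only lie above 0. At least 1.5-fold higher were 3 of 11 (27.3%), where 16.6% of all measured probe sets were, and at least 1.5-fold lower were 2 of 11 (18.2%), where 22.6% were. At 2-fold there were 2 higher and 2 lower, against 6.4% and 9.45% of all. The median log2 ratio of the 11 was 0.28, and that of all measured probe sets was -0.08. These shares rest on so few probe sets that 1 more or fewer moves them by a large step, and 3 of the genes contribute a pair of probe sets each. With 1 value per gene, read from its brightest probe set, 1 of the 8 genes was at least 1.5-fold higher and 2 were at least 1.5-fold lower. Of all 6367 measured genes, 15.9% and 22.4% were. Of the 8 genes, 5 lay above 0.

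**Figure D1:**
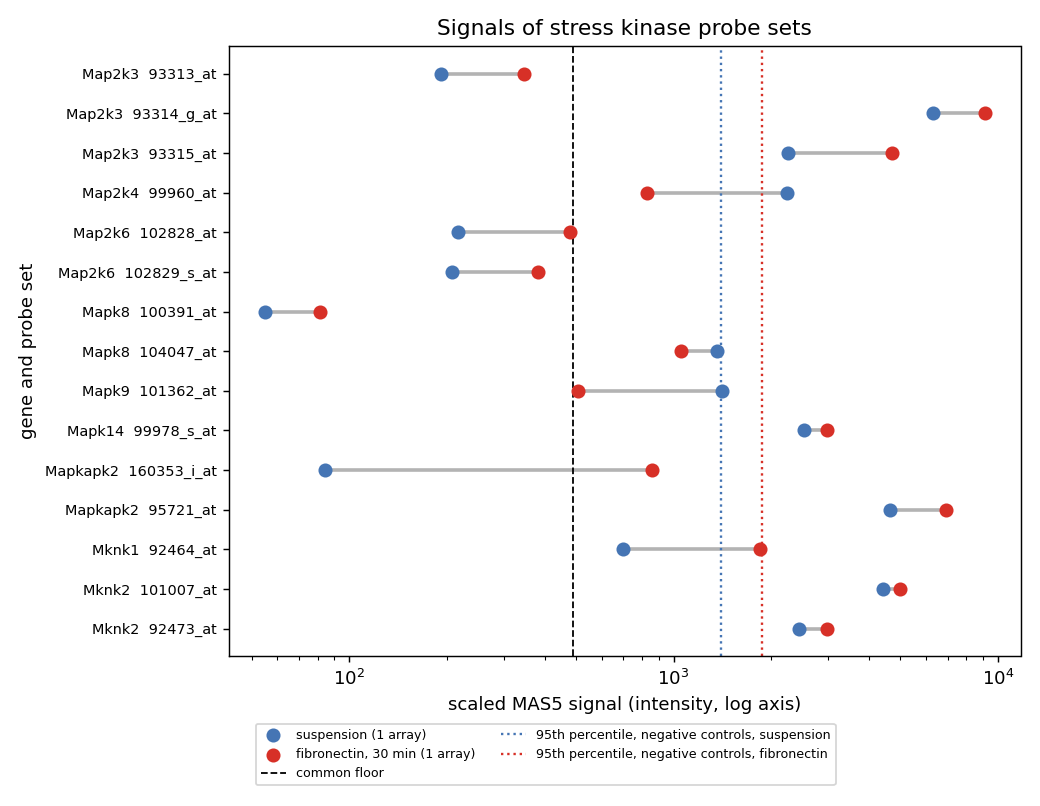
Scaled signals (intensity, log axis) of all 15 probe sets, 1 point per array, blue for suspension and red for fibronectin, joined by a grey line. The dashed line is the floor of 490 and the dotted lines are the 95th percentiles of the negative controls, 1403 in suspension and 1873 on fibronectin. Both signals of 4 probe sets, 1 of Map2k3, 2 of Map2k6 and 1 of Mapk8, lie under the floor.

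The genes with the largest ratios in each direction are shown here by the 250 bases before their RefSeq transcription start (build GRCm38.p6), to set the common promoter elements of genes with opposite ratios side by side. Capitals mark matches, on both strands, to the GC box GGGCGG, the CCAAT box CCAAT, the Ets site CCGGAAG, the AP-1 site TGANTCA and the CRE TGACGTCA, and no match of 1 motif overlaps another in these 4 stretches. Map2k3 and Mknk1 were higher on fibronectin, Map2k4 and Mapk9 lower. For Map2k4 and Mknk1, which have 2 listed starts, the first listed is given.
Map2k3, chr11:60931804-60932053, plus strand: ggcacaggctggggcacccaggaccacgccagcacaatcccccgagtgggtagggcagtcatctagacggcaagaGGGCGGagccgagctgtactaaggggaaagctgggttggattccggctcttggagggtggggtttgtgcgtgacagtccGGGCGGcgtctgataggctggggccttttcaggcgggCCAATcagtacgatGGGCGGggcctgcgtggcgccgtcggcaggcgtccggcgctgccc
Mknk1, chr4:115838948-115839197, plus strand: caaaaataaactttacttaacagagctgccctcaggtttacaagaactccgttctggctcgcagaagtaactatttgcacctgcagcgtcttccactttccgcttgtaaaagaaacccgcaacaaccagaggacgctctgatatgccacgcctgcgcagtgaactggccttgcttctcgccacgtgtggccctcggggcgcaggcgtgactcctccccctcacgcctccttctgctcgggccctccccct
Map2k4, chr11:65788360-65788609, minus strand: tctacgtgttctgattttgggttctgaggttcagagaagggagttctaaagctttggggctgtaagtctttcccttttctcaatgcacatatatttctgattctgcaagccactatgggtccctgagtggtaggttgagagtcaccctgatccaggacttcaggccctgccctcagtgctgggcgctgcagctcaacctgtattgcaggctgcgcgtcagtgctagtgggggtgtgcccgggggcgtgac
Mapk9, chr11:49846501-49846750, plus strand: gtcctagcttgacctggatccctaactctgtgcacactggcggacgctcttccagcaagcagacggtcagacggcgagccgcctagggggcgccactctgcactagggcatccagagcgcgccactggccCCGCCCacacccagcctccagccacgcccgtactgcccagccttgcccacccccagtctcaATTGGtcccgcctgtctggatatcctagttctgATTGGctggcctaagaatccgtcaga
The stretch of Map2k3 held 3 GC boxes and 1 CCAAT box, and that of Mapk9 held 1 GC box and 2 CCAAT boxes, so these elements stood before a gene of each direction. Those of Mknk1 and Map2k4 held none of the motifs. The RefSeq table held 32851 such stretches of 27025 genes, later starts of a gene included. Of these stretches, 32.7% held a GC box, 33.8% a CCAAT box, 6.91% the Ets site, 6.75% the AP-1 site and 1.55% the CRE. In the first listed stretch of all 10 genes, a GC box was found in 5, a CCAAT box in 3, the AP-1 site in 1, which was Map2k6, and the Ets site and the CRE in 0. A match is a run of letters and not evidence of binding. The GC content of the 10 stretches ran from 50.4% to 79.2% with a median of 62.0%, and that of all stretches had a median of 52.4%. The genes of Map2k3, Map2k4, Map2k6 and Mapk9 share chromosome 11, and they include members of both directions.

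In the MAP2K tier, Map2k3 encodes MKK3, a dedicated activator of p38. Its probe set 93315_at read 2251 in suspension and 4722 on fibronectin, a 2.10-fold higher value (log2 ratio 1.07). This was the largest ratio among members whose signals lay above every negative control in both arrays. The highest negative control read 1452 in suspension and 2527 on fibronectin, so at 2251 in suspension it could join them only if higher. Map2k4, at 2233 in suspension, was left out by its lower fibronectin signal. The ratio of 93315_at was at least 1.5-fold under all 10 processing alternatives. The probe set 93314_g_at, built on another sequence record, had 6312 and 9103 (log2 ratio 0.53), just short of 1.5-fold. Its place among all probe sets of its array moved from percentile 94.5 to 96.1, and that of 93315_at from 79.0 to 91.0. Both measured probe sets of Map2k3 thus pointed the same way, and their ratios differed by 0.54, less than the SD of such differences, 0.97. The third, 93313_at, made from the same record as 93314_g_at, lay under the floor in both arrays, with 192 and 346. With scaling to 9 hybridisation spikes, control transcripts added to each sample before hybridisation, the log2 ratios of the measured pair were 0.59 and 0.05.

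Map2k4 encodes MKK4, which phosphorylates JNK. Its probe set read 2233 in suspension, above every negative control, and 827 on fibronectin, where 5 of the 34 negative controls were at least as bright. It was 2.70-fold lower on fibronectin (log2 ratio -1.43), which is 2.10 times the SD between probe sets over all signal levels. Its place in the array moved from percentile 78.9 to 55.6. With the floor raised to the level of the negative controls, the fibronectin signal lay under it, and the log2 ratio was a bound of -0.45. Map2k6 encodes MKK6, the close relative of MKK3. Its probe sets 102828_at and 102829_s_at had signals of 216 and 208 in suspension and of 479 and 382 on fibronectin, all under the floor, so no ratio is given.

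Both JNK genes had signals that some negative controls exceeded. Mapk9, which encodes JNK2, read 1408 in suspension and 509 on fibronectin, the latter just above the floor and exceeded by 12 of the 34 negative controls. It was 2.77-fold lower (log2 ratio -1.47), the lowest ratio of the members, and 2.68% of all measured probe sets had a lower one. Its place moved from percentile 66.6 to 42.6. When the floor was set at the 60th percentile, the log2 ratio was a bound of -0.42, and with it at the negative controls the gene was not measured. Mapk8, which encodes JNK1, had signals of 1359 and 1052 in 104047_at (log2 ratio -0.37), and 3 negative controls exceeded it in each array. With scaling to the spikes it was -0.84. Its other probe set, 100391_at, read 55 and 81, among the lowest signals of the array. The difference of Mapk9 was larger than the SD between probe sets and that of Mapk8 was smaller, but whether the JNK genes differ from each other was not tested.

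Mapk14 encodes p38 alpha, the main p38 kinase of fibroblasts. Its probe set had signals of 2528 and 2980 (log2 ratio 0.24), above every negative control in both arrays and within the SD between probe sets. The sign turned with scaling to the spikes (-0.24), which moved all measured probe sets to a median of -0.50. The message of the p38 kinase itself was thus close to level. That of its activator Map2k3 was higher in both of its measured probe sets, but the ratio of the brighter, 93314_g_at (0.53), also lay within the SD.

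**Figure D2:**
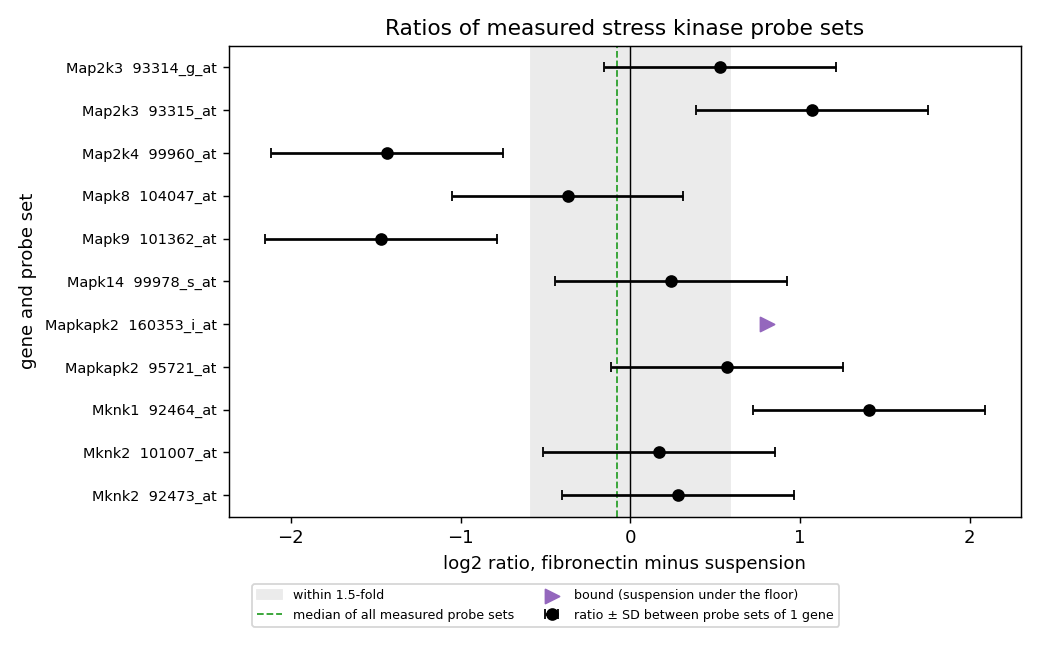
Log2 ratios of the 11 measured probe sets, fibronectin minus suspension, with bars of ± 0.68, the SD between probe sets of a gene (it leaves out the spread between cultures), and a triangle for a bound. Mknk1, 93315_at of Map2k3 and the bound of Mapkapk2 lie to the right of the grey band of 1.5-fold and Map2k4 and Mapk9 to its left. With scaling to the spikes, which is not drawn, Mapk14 and both probe sets of Mknk2 turn to the left of 0.

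The kinases downstream of p38 were measured in all of their 5 probe sets, and all 5 lay above 0. For 160353_i_at of Mapkapk2 the floor allowed no other direction, and for both probe sets of Mknk2 it turned with scaling to the spikes. Mapkapk2 encodes MK2, which p38 activates and which controls the stability and translation of inflammatory messages. Its probe set 95721_at had signals of 4652 and 6909, a 1.49-fold higher value (log2 ratio 0.57) that lay just under 1.5-fold. The log2 ratio was 0.78 with median scaling but 0.097 when the arrays were set to the spikes. The other, 160353_i_at, read 84 in suspension and 856 on fibronectin, at least 1.75-fold higher, and 5 negative controls were at least as bright on fibronectin. With no floor its log2 ratio was 3.35, a number set by a suspension signal under that of 30 of the 34 negative controls, and with floors at the 60th percentile or at the negative controls it was not measured. Because 160353_i_at reached the floor on fibronectin alone, its ratio could only lie above 0. Direction and size for Mapkapk2 thus rest on the brighter probe set.

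Mknk1 encodes MNK1, a kinase that p38 and ERK activate and that phosphorylates the cap-binding protein eIF4E. It read 699 in suspension, where 12 negative controls were at least as bright, and 1850 on fibronectin, where 2 were. It was 2.64-fold higher (log2 ratio 1.40), the highest ratio of the members and 2.05 times the SD between probe sets over all signal levels. Its place moved from percentile 46.8 to 75.6. With the floor at the 60th percentile the log2 ratio was a bound of 0.81, and at the negative controls it was a bound of 0.18. Mknk2 encodes MNK2, its relative with high activity in resting cells. Its probe sets read 4428 and 4982 in 101007_at (log2 ratio 0.17) and 2443 and 2970 in 92473_at (0.28), all above every negative control. The ratios differed by 0.11, and both turned with scaling to the spikes, to -0.30 and -0.19. Of the pair, the kinase with the large ratio was thus the one whose signals overlapped the negative controls, and the one with signals well above them was close to level.

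**Figure D3:**
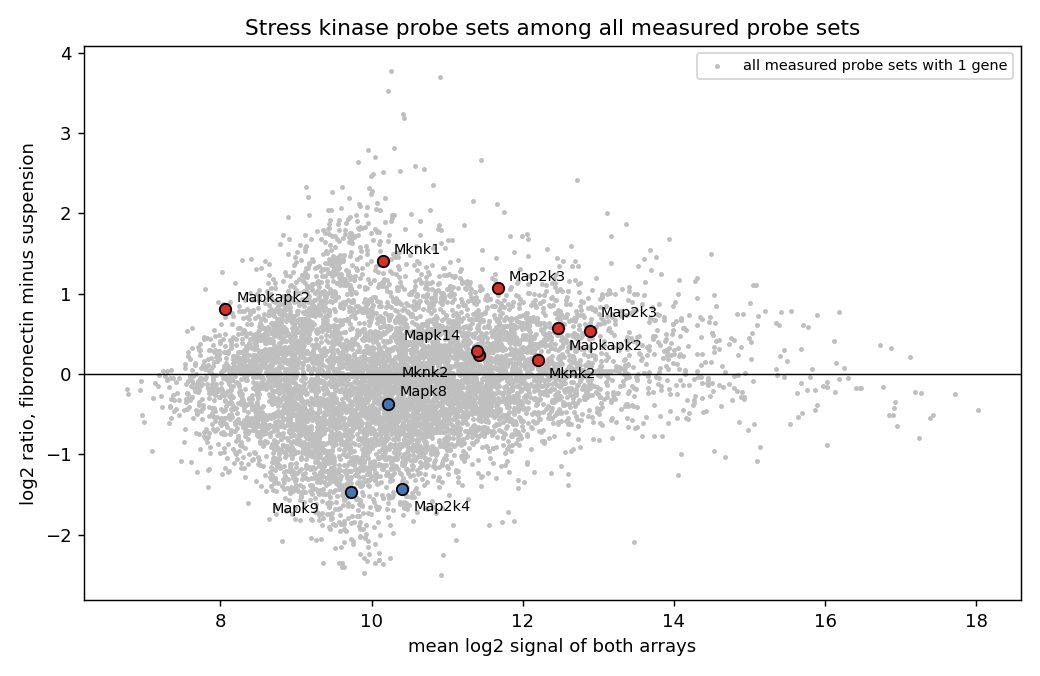
Log2 ratio, fibronectin minus suspension, against the mean log2 signal of both arrays for all 7753 measured probe sets that carry 1 gene name (grey) and the 11 of the stress kinases (red above 0, blue below 0). Mapk9, Map2k4 and Mapk8 lie below 0 at middle signals, where Mknk1 lies above 0, and the 6 brightest members lie above 0, of which Mapk14 and Mknk2 fall below 0 with scaling to the spikes.

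Bright members lay above 0, and dimmer ones lay on both sides of it. The 3 probe sets below 0 all belong to the middle tertile of signal, in which 29.1% of 2584 probe sets passed 1.5-fold downward and 15.8% upward. Mknk1, with the highest ratio of the members, belongs to the same tertile, and 160353_i_at of Mapkapk2, also above 0, to the lowest. The other 6 above 0 had signals above every negative control in both arrays. Of all 1911 probe sets that did so, 62.3% lay above 0, 21.5% passed 1.5-fold upward and 5.6% downward, with a median log2 ratio of 0.15. All 6 members among them, of Map2k3, Mapk14, Mapkapk2 and Mknk2, lay above 0 and 1 was at least 1.5-fold higher. The limit was uneven, 1452 in suspension but 2527 on fibronectin, so a suspension signal between these could enter only with a ratio above 0. That held for 93315_at of Map2k3 (2251) and 92473_at of Mknk2 (2443), and Mapk14 (2528) lay just above. The shares of the 1911 were tilted upward by the same limits. The part of signal level in the split between the JNK and the p38 branches was not tested. Ratios beyond 2 times the SD between probe sets, taken over all signal levels, were found for Map2k4, Mapk9 and Mknk1, or 3 of 11, against 6.29% of all measured probe sets. Each of these 3 had at least 1 signal within the range of the negative controls. All 3 belong to the middle tertile of signal, where the SD was 0.73, and by that SD only Mapk9 lay beyond 2 times.

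The size of the ratios moved with the scaling. The median of all measured probe sets was -0.08 with the scaling used, 0.11 with median scaling and -0.50 when arrays were set to the spikes. At least 1.5-fold higher and lower were 5 and 2 members with median scaling, where 23.8% and 15.7% of all probe sets were, and 2 and 3 with scaling to the spikes, where 6.56% and 44.9% were. Taken relative to the median of all measured probe sets under the same setting, the 8 probe sets above 0 stayed above that median in each setting that measured them, by at least 0.07 (101007_at of Mknk2), and the 3 of Map2k4, Mapk8 and Mapk9 stayed below it, by at least 0.16 (Mapk8). A single factor per array shifts all ratios above the floor alike, and a changed floor leaves ratios of signals above it as they were. For such settings the side of the median was thus largely fixed in advance.

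**Figure D4:**
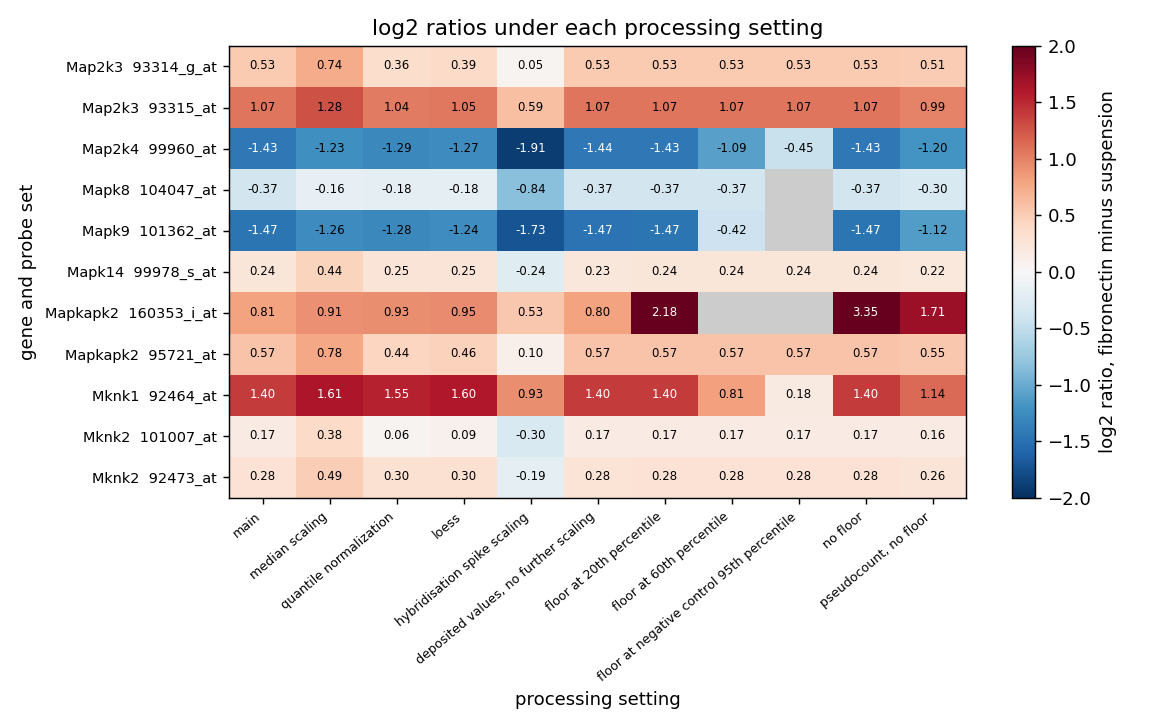
Log2 ratios of the 11 measured probe sets under the main setting and 10 alternatives (red higher on fibronectin, blue lower, grey not measured). 93315_at of Map2k3 stays between 0.59 and 1.28, whereas Mapk14 and both probe sets of Mknk2 turn below 0 with scaling to the hybridisation spikes. With the floor at the negative controls, Map2k4 and Mknk1 have only bounds, of -0.45 and 0.18.

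Around these kinases, 96 other genes of the pathways were listed by role, of which 57 were measured with 1 value per gene, read from the brightest probe set. Upward, 10 (17.5%) passed 1.5-fold, and downward 12 (21.1%), close to the 15.9% and 22.4% of all 6367 measured genes. The median log2 ratio was -0.02, and that of all measured genes was -0.09. The shares of these genes thus lay near those of the whole array.

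Upstream, 18 MAP3 kinases, adaptors and GTPases were measured, of which 2 passed 1.5-fold upward and 4 downward, with a median of -0.14. The largest ratio was that of Map3k3, which encodes MEKK3, an activator of several MAP2 kinases. Its signals were 2712 and 1065 (2.55-fold lower), and its other probe sets had log2 ratios of -1.03 and -0.33, so all 3 lay below 0. Of 3 other measured kinases of the family, 1 passed 1.5-fold upward and 1 downward, with a median of 0.07. The lower one was Mapk10 (JNK3, the JNK typical of neural tissue), with signals of 1341 and 825 both exceeded by negative controls. Of 5 scaffolds, 0 passed 1.5-fold upward and 2 downward, with a median of -0.56. The JNK scaffold gene Mapk8ip1 (JIP1) had the largest ratio, with signals of 1334 and 798 (1.67-fold lower), both below the 95th percentiles of the negative controls. Of 6 phosphatases, 0 passed 1.5-fold in either direction, with a median of -0.17. The largest ratio was that of Ppm1b, a phosphatase that acts on stress kinases, with 1462 and 1141 (log2 ratio -0.36), while of its other probe sets 1 was lower, by at least 1.76-fold, and 1 higher, by at least 1.12-fold.

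Downstream, 13 transcription factors that JNK, p38 or kinases under them phosphorylate were measured, of which 3 passed 1.5-fold upward and 2 downward, with a median of 0.14. Jun, the substrate that gives JNK its name, had signals of 3309 and 2248 (log2 ratio -0.56), and Atf2, a substrate of both branches, had 1964 and 1673 (-0.23), with at least 1.14-fold lower in its other probe set. The largest ratio was that of Creb1, which had 1280 and 206 (at least 2.61-fold lower), both exceeded by negative controls, while its other measured probe set had 491 and 469, close to level at the floor. Of 12 measured substrates and targets of MK2 and the MNKs, 4 passed 1.5-fold upward and 3 downward, with a median of 0.02. The splicing factor gene Sfpq, an MNK substrate, had signals of 547 and 2250 (4.11-fold higher) in 99621_s_at, whereas its other measured probe sets were lower, with bounds of 1.51-fold and 1.19-fold, so its direction was not settled. Hspb1, the small heat shock protein that MK2 phosphorylates, read 344 and 101, and Eif4e read 327 and 356 in its brighter probe set, all under the floor.

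**Figure D5:**
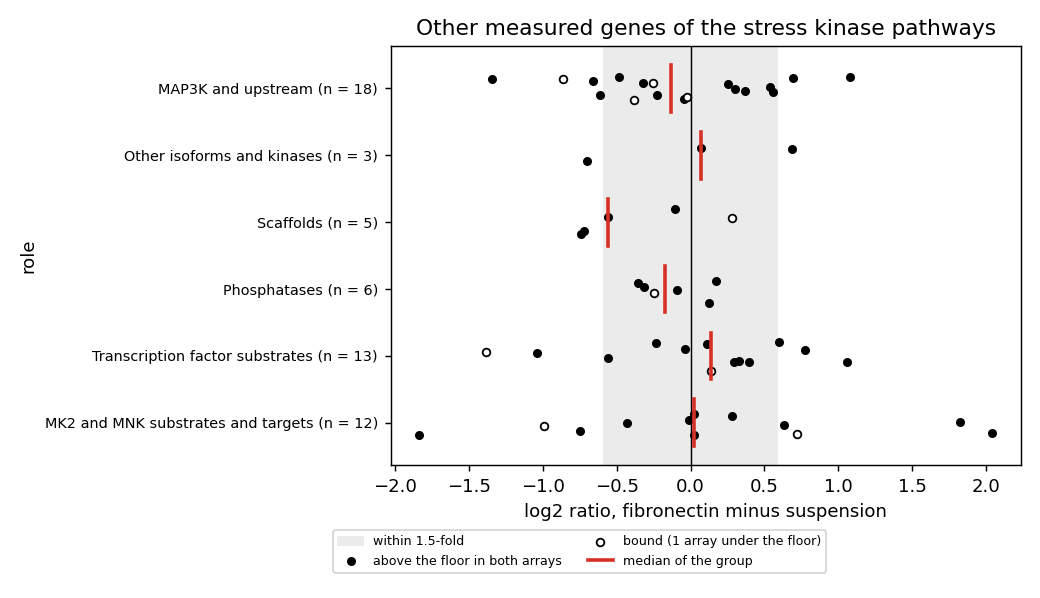
Log2 ratios, fibronectin minus suspension, of the 57 other measured pathway genes by role, 1 point per gene (open where 1 array lay under the floor) and a red line at each group's median. The medians run from -0.56 for 5 scaffolds to 0.14 for 13 transcription factors, and all lie inside the grey band of 1.5-fold.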

How the data were processed

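The data are total RNA of 2 samples, each biotin-labelled and hybridised to 1 Affymetrix MG_U74Av2 array, with groups taken from the sample titles. The authors deposited linear, uncentred intensities, with a single signal for each probe set. Per the submitters' processing notes they come from MAS5, of which neither version nor scaling target is known here, and detection calls were not used. The medians of the deposited columns were 785 (suspension) and 679 (fibronectin). The other deposited files hold instrument settings.

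Arrays were scaled by their 2% trimmed means, taken over the 12422 probe sets other than controls (factors 0.999 and 1.00) and floored at the mean of both 40th percentiles before log2 was taken. Names came from the platform annotation: 10855 probe sets had 1 symbol, 396 several and 1237 were unlisted. By gene ID 10839 matched the RefSeq table of GRCm38.p6. For the 1 value of a gene, the probe set brightest by mean log2 signal was taken. Probe sets of a gene share a target and are not replicates. Those with suffixes such as _s_at, _g_at or _f_at can share probes with related sequences. The spread between probe sets was computed from floored ratios. With 1 array per group no test was made.

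The text names every member, the gene with the largest absolute ratio in each role list, and Jun, Atf2, Hspb1 and Eif4e. The members and lists were chosen with earlier results of these data known. Alternatives were median, quantile, loess (span 0.4) and spike scaling, no further scaling, floors at the 20th and 60th percentiles and at the negative controls' 95th percentile, no floor, a pseudocount of 256, and the mean of a gene's probe sets. Calculations used Python 3.11.15, numpy 2.4.6, pandas 2.3.3 and statsmodels 0.14.6, and were tested on simulated arrays.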

Additional observations from a re-analysis of the deposited data

How the results depend on the processing

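Shares in brackets are those of all measured probe sets under the same setting. Of the 10 alternatives, scaling to the hybridisation spikes turned the members' median log2 ratio to -0.19 and left 0 probe sets at least 2-fold higher (2.66%). That scaling sets 1 factor per array from its spike signals, so it shifts ratios above the floor alike. The direction of the shift came from the spike signals and was downward here. At least 1.5-fold higher were 5 probe sets with median scaling (23.8%), 6 with the floor at the 20th percentile (21.5%), 6 with no floor (21.4%) and 1 with the floor at the negative controls (13.3%). At least 2-fold higher were 4 with the floor at the 20th percentile (11.8%), 4 with no floor (12.7%), 1 with the floor at the 60th percentile (3.85%) and 1 with that at the negative controls (3.21%). Downward, 1 passed 1.5-fold (14.8%) and 1 passed 2-fold (3.39%) with the floor at the 60th percentile, and 0 passed either (9.34% and 1.39%) with that at the negative controls, where 8 of the 15 probe sets were measured and Mapk9 was not among them. The number of probe sets measured moved too, to 14 with the floor at the 20th percentile and 15 with none. The mean of a gene's measured probe sets, in place of the brightest, reversed 0 member genes. Signal over background limits Map2k4, Mapk8, Mapk9, Mknk1 and Map2k6, which lay in at least 1 array within the range of the negative controls. No paired analysis was possible because each group had 1 array.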
